A study of Mus musculus with 4 samples.

Results

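The Schlafen genes described here were Slfn1, Slfn2, Slfn3, Slfn4, Slfn5, Slfn8 and Slfn9, which were taken by their symbols and made up 7 of the 34745 genes in the deposited table. They were measured by RNA-sequencing in bone marrow-derived macrophages (BMMs), which are macrophages grown from mouse marrow and able to become osteoclasts when given RANKL. The cells came from 8-week-old male wild-type C57BL/6 mice, had no FBS for 12 h, and RANKL (100 ng/mL) was then present for 24 h. The RANKL+DI group (2 libraries) also received dimethyl itaconate (DI), a cell-permeable ester of the macrophage metabolite itaconate, and the RANKL+DMSO group (2 libraries) received the vehicle. The dose of DI is 20 mM in the labels and 20 μM in the paper. Both groups received RANKL, so no library shows the cells without it. Nothing in the labels says that libraries of a group came from separate cultures or mice, so p-values measure only the spread between these libraries, which may be technical.

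Schlafen proteins are a family found in mammals and named after the German word for sleep, because the founding members slowed the growth of T cells. In the mouse the genes lie side by side and fall into classes by length: short proteins (Slfn1 and Slfn2), intermediate ones (Slfn3 and Slfn4) and long ones that also carry a helicase-like part (Slfn5, Slfn8, Slfn9 and Slfn14). Several members are induced by type I interferon in macrophages and other cells, and the shared core of the family is known for binding or cleaving transfer RNA.

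The 7 genes lay within 263.8 kb of chromosome 11 (GRCm38), at chr11:82951349-83215154. Along the chromosome the order was Slfn5, Slfn9, Slfn8, Slfn2, Slfn1, Slfn4 and Slfn3, with the pseudogene Slfn10-ps between Slfn8 and Slfn2. Slfn5, Slfn2, Slfn1, Slfn4 and Slfn3 are annotated on the plus strand, and Slfn9 and Slfn8 on the minus strand. The coding sequence in GENCODE M21 had 1011 bases in Slfn1 and 1134 in Slfn2, then 1806 in Slfn4 and 1920 in Slfn3, and 2652 in Slfn5 and 2730 in each of Slfn8 and Slfn9.

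Promoter sequences were read from RefSeq (GRCm38.p6) because interferon acts on its target genes through a short element near their start, the interferon-stimulated response element. The windows ran from 250 bases before to 50 bases after each start and were searched on both strands for GAAA followed after any 2 bases by GAAA as that element. It was present in 3.44% of all 32851 promoter windows, and in 55.6% of the 36 windows of a list of interferon effector genes. Among the members it was present in the windows of Slfn5 (first base 155 bases before the start), Slfn9 (45 bases before) and Slfn8 (48 bases before), which are long members. The windows of Slfn1, Slfn2, Slfn3 and Slfn4, and that of Slfn14, a long gene of the family outside the 7, held no such match, which says only that these letters are not in those windows. The 3 upstream stretches with a match are printed below with that of Slfn2, the most abundant member, for comparison, from 250 to 31 bases before the start, 5′ to 3′ on the strand of the gene. Capitals mark the match, which in Slfn9 and Slfn8 reads as its reverse complement.
Slfn5, chr11:82951852-82952071, plus strand: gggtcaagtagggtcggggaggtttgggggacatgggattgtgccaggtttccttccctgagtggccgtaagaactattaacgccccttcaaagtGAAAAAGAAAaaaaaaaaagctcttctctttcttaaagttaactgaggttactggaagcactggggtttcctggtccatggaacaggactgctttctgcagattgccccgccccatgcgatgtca
Slfn9, chr11:82991861-82992080, minus strand: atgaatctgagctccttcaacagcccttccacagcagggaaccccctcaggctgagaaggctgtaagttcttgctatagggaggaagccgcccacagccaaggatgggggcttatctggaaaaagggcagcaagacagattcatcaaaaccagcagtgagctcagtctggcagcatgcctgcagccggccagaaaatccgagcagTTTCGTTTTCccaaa
Slfn8, chr11:83020841-83021060, minus strand: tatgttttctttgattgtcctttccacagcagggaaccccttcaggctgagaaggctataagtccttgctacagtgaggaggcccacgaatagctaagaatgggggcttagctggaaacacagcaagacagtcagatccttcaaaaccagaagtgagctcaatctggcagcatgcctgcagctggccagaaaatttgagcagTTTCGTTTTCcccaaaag
Slfn2, chr11:83064862-83065081, plus strand: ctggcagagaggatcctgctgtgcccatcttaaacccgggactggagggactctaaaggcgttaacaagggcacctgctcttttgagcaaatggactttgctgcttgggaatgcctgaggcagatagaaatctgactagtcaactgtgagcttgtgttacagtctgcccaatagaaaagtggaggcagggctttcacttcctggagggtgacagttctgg
The capitals in Slfn9 and Slfn8 are the same 10 letters, and the full windows of these neighbours were identical at 84.9% of 292 aligned bases. Slfn8 has a second RefSeq start, from which the same match lies 136 bases upstream. The match of Slfn5 lies inside the gene as the deposited table draws it, since the table starts Slfn5 before the RefSeq start used here. Searches for TTCNNNGAA (the gamma-interferon activated site, in 8.3% of all windows) found no match in a member, and those for TGACNNNGC (the antioxidant response element, in 12.4% of all windows) found matches in Slfn5 and Slfn3 at 39 and 119 bases before the start. A match of letters is a description of the sequence and was not tested for binding.

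All 7 members passed the filter on low counts, and with DI 6 of them were called lower, 0 were called higher and 1, Slfn3, was not called (edgeR's quasi-likelihood test, Benjamini-Hochberg adjusted p under 0.05 over 12590 genes). Across all tested genes 7.7% were called lower, 7.14% higher and 14.8% in either direction. Slfn1 passed the filter only through its DMSO libraries, so its place among the called genes is no support for the count. The same holds for its part in the count of separated groups and in the median of the members, both given next. In each of the 7 members the DI libraries lay apart from the DMSO libraries, against 58.6% of all tested genes whose groups did not overlap and 29.6% that did so in the lower direction. The median log2 fold change of the members was −0.66, and 4.10% of the tested genes lay at or below it, while the median of all tested genes was 0.00 and their 5th and 95th percentiles were −0.60 and 0.55. Summed over the members, the level was 513 and 502 CPM (counts scaled to a common depth with TMM factors, which allow for a few abundant genes taking more of a library) in the DI libraries and 721 and 753 CPM in the DMSO libraries. Slfn2 supplied between 58.0% and 63.3% of the Schlafen counts of a library. In bulk RNA, fewer cells of a type and less RNA per cell cannot be told apart.

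**Figure D1:**
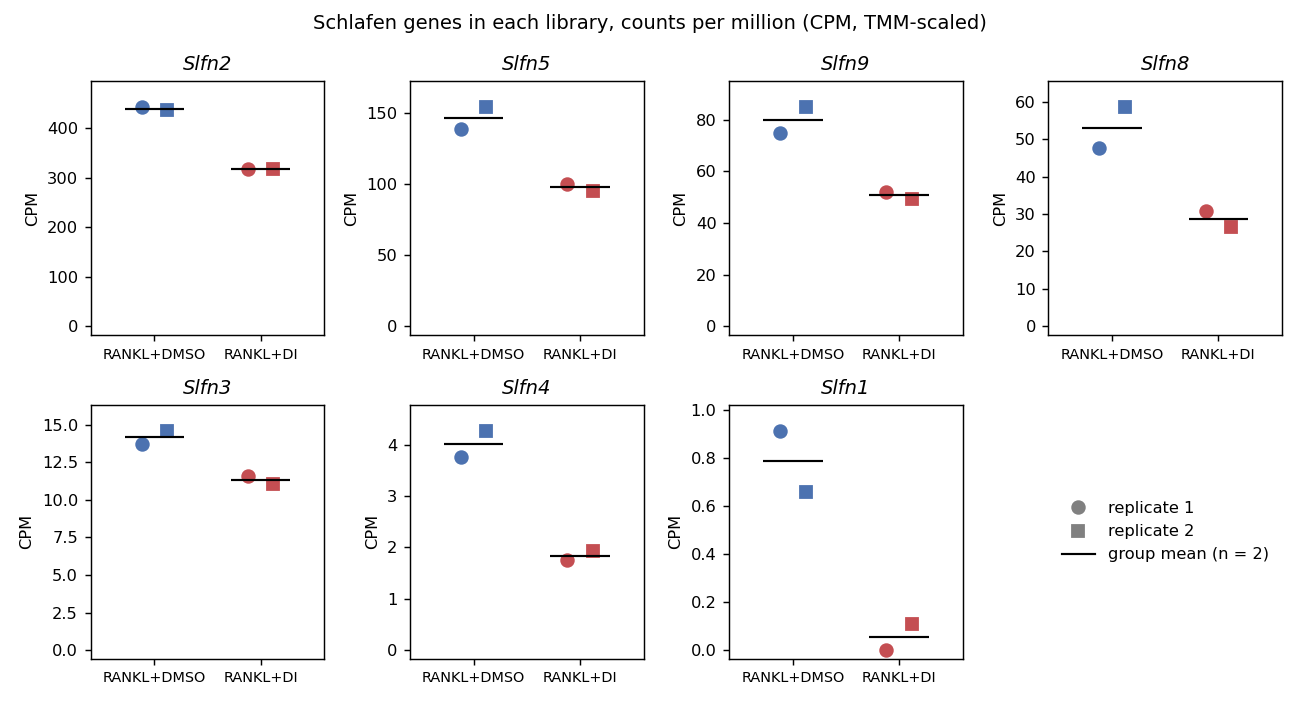
Level of each Schlafen gene in CPM (vertical axis from 0, different in each panel) in the 2 RANKL+DMSO and 2 RANKL+DI libraries, with the group means as lines. Every DI library lies below every DMSO library in all 7 panels, from 317 and 318 against 442 and 436 CPM in Slfn2 down to 0 and 0.107 against 0.913 and 0.660 CPM in Slfn1.

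Slfn2 is the short member known from a mutant mouse line in which T cells and monocytes lose their resting state and die when activated. It had 317 and 318 CPM with DI, from 5435 and 5962 counts, and 442 and 436 CPM with DMSO, from 8229 and 7267 counts. Libraries of the same group were close together and the groups were far apart. The log2 fold change was −0.47 (SE 0.035, 95% confidence interval −0.55 to −0.38), a level 27.7% lower with DI, with an edgeR adjusted p of 0.00130. It was the member with the smallest p-value, at position 113 among all tested genes. Under 16 other settings its log2 fold change lay between −0.57 and −0.46 and its adjusted p did not exceed 0.00801.

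Slfn1 is the other short member and the one first linked to slower T cell growth. Its counts were 0 and 2 with DI against 17 and 11 with DMSO, which are 0 and 0.107 CPM against 0.913 and 0.660 CPM. The DI libraries lay below the level of 3 counts, which corresponds to 0.160 to 0.180 CPM at these depths, so presence in them was at or under the limit of detection. Counts summed per group gave a DMSO to DI ratio of 14.3, with an exact 95% interval from 3.59 to 123 that covers counting error only. The edgeR adjusted p was 0.0347, and the fitted log2 fold change of −3.67 (SE 0.82) depends on the prior count and is no bound. The call was lost without DI replicate 1 (log2 fold change −2.81, adjusted p = 0.118), without DMSO replicate 2 (−3.88, adjusted p = 0.0785), and the gene did not pass the filter without DMSO replicate 1.

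Slfn4, an intermediate member known to be induced in macrophages by interferon and Toll-like receptor ligands, had 1.75 and 1.92 CPM with DI and 3.76 and 4.26 CPM with DMSO. These values came from 30 and 36 counts against 70 and 71 counts, and the groups were separated by more than the spread within either. The log2 fold change was −1.12 (SE 0.21, 95% confidence interval −1.63 to −0.61), a level 54.0% lower with DI, with an edgeR adjusted p of 0.0194. The call held without DI replicate 2 (log2 fold change −1.19, adjusted p = 0.0493). It was lost with any other library left out, where the adjusted p was 0.0654 without DI replicate 1, 0.0615 without DMSO replicate 1 and 0.0997 without DMSO replicate 2, at log2 fold changes of −1.06, −1.21 and −1.03.

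Slfn3, the neighbour of Slfn4 and the other intermediate member, had 11.6 and 11.04 CPM with DI and 13.7 and 14.6 CPM with DMSO. Both DI libraries were lower than either DMSO library. The log2 fold change was −0.32 (SE 0.11, 95% confidence interval −0.58 to −0.07), with an unadjusted p of 0.0221 and an adjusted p of 0.0994 in edgeR's quasi-likelihood test, so Slfn3 did not pass. With scaling by library size only it did pass (log2 fold change −0.43, adjusted p = 0.0397), where the median of all tested genes moved to −0.10. The same scaling turned the split over all genes from 969 lower and 899 higher to 1932 lower and 548 higher, while the log2 fold change of Slfn3 minus the median of all genes was −0.32 under TMM and −0.32 under library size only.

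Slfn5 is a long member that acts in the nucleus and is the nearest mouse counterpart of human SLFN5. It had 100 and 95.3 CPM with DI and 139 and 154 CPM with DMSO, from 1717 and 1787 against 2583 and 2560 counts. Both DI libraries were clearly lower than either DMSO library. The log2 fold change was −0.58 (SE 0.064, 95% confidence interval −0.74 to −0.42), a level 33.2% lower with DI, with an edgeR adjusted p of 0.00384. The exons of Slfn5 share 559 bases with the antisense gene Slfn5os, which had 0 counts in all 4 libraries.

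Slfn8 and Slfn9 are long members that lie next to each other. Slfn8 had 30.8 and 26.6 CPM with DI and 47.6 and 58.5 CPM with DMSO, from 528 and 498 against 886 and 974 counts. Slfn9 had 52.1 and 49.2 CPM with DI and 74.9 and 84.8 CPM with DMSO, from 894 and 923 against 1395 and 1412 counts. In both genes the groups were separated and the DMSO libraries were spread more widely than the DI libraries. The log2 fold change of Slfn8 was −0.89 (SE 0.12, 95% confidence interval −1.19 to −0.58, edgeR adjusted p = 0.00787), which is a level 45.9% lower. That of Slfn9 was −0.66 (SE 0.080, 95% confidence interval −0.85 to −0.46, edgeR adjusted p = 0.00536), or 36.5% lower. Their intervals overlap, as do those of Slfn5 and Slfn9, and the difference between members was not tested.

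DMSO replicate 2 was the higher DMSO library in Slfn3, Slfn4, Slfn5, Slfn8 and Slfn9, and DI replicate 2 was the lower DI library in Slfn3, Slfn5, Slfn8 and Slfn9. On a log2 scale centred on each gene, the long members stood at 0.22 to 0.29 in DMSO replicate 1 and at 0.36 to 0.59 in DMSO replicate 2. Slfn2 stood at 0.24 and 0.23 in the same libraries. Slfn4 stood at 0.45 and 0.63, Slfn3 at 0.12 and 0.20, and Slfn1, from few counts, at 1.46 and 1.05. The DMSO libraries were thus closest in Slfn2, and the same library was the higher one in every member but Slfn1 and Slfn2.

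Compared per kilobase of gene length, the members differed widely in level. The lengths were those that the deposited FPKM values imply, from 1664 bases in Slfn2 to 6662 bases in Slfn9. Slfn2 had 264 CPM per kilobase with DMSO and 191 with DI, about an order of magnitude above Slfn5, which had 25.7 and 17.2. Slfn9 followed with 12.0 and 7.60 CPM per kilobase, then Slfn8 with 8.48 and 4.59 and Slfn3 with 7.80 and 6.23. Slfn4 had 0.639 and 0.292 CPM per kilobase, and Slfn1 came last with 0.422 and 0.0286. With DMSO, Slfn8 and Slfn3 could not be placed in order, because Slfn8 had 7.61 and 9.36 CPM per kilobase in the 2 libraries and Slfn3 had 7.57 and 8.03. With DI the libraries of these genes did not overlap, and Slfn3 (6.38 and 6.08) stood above Slfn8 (4.92 and 4.25). With these lengths the other neighbours in the order did not overlap in either group. The order of Slfn9, Slfn8 and Slfn3 depends on the lengths used and is not settled here, since in GENCODE M21 the annotated exons add up to 3411 bases in Slfn3 where the FPKM values imply 1816, to 4091 in Slfn8 where they imply 6250, to 5965 in Slfn9 where they imply 6662, and to 3964 in Slfn4 where they imply 6279.

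**Figure D2:**
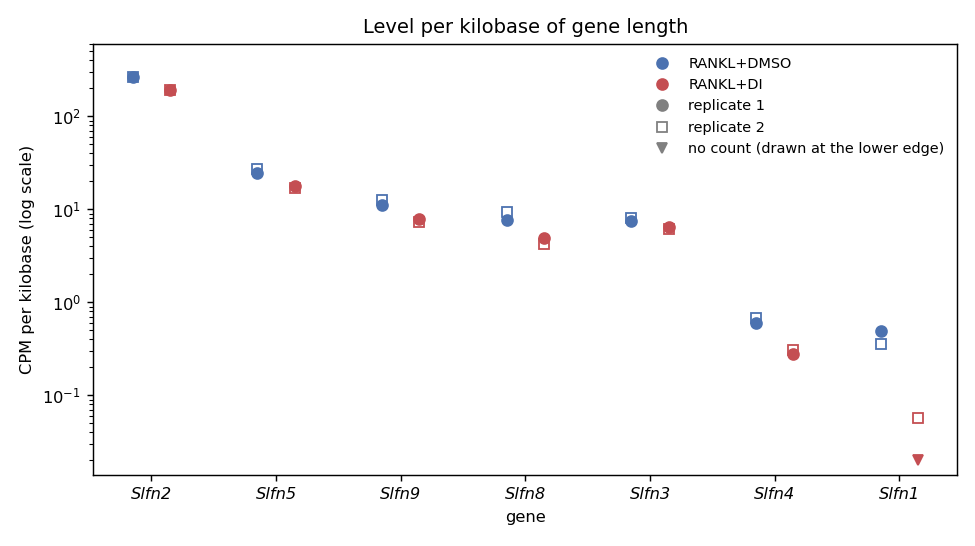
Level of each Schlafen gene per kilobase of gene length, in CPM per kilobase on a log axis, for each library of RANKL+DMSO and RANKL+DI, with a triangle where a library had no count. Slfn2 stands at 264 (DMSO) and 191 (DI) on average, and with the lengths implied by the FPKM values Slfn8 and Slfn3 overlap with DMSO but not with DI.

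Slfn10-ps, a transcribed pseudogene in the middle of the locus, had 21.7 and 25.1 CPM with DI and 25.4 and 30.2 CPM with DMSO. The groups did not overlap, but by little, and its log2 fold change of −0.25 (SE 0.12, 95% confidence interval −0.54 to 0.05) was not called (edgeR adjusted p = 0.233). The remaining genes of the table whose symbols begin with Slfn were at or near 0: Slfn14, the long member known from platelets, had 1 and 0 counts with DI and 1 and 0 counts with DMSO, and Slfn5os and Slfnl1 had none.

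The 3 nearest tested genes before the locus and the 2 nearest after it were looked up after the values of the members were seen. Rffl rose with DI (log2 fold change 0.41, SE 0.085, edgeR adjusted p = 0.0282). Nle1, the nearest before Slfn5, had −0.40 (SE 0.12, adjusted p = 0.0807) and Rad51d had 0.06 (SE 0.10, adjusted p = 0.746), and neither was called. Beyond Slfn3, AI662270 had −0.02 (SE 0.065) and Gm11427 had −0.04 (SE 0.11), with edgeR adjusted p-values of 0.894 and 0.862. The locus is here the span of the members. Both of these genes lie between Slfn3 and Slfn14 (chr11:83275110-83286726), so they are inside the wider Schlafen cluster. Gm11427 also shares sequence with Slfn3, as given below. Within the locus 6 of the 8 tested genes were called lower, Slfn1 among them. Of these 5 flanking genes 0 were called lower and 1, Rffl, higher, against 7.7% lower and 7.14% higher over all tested genes, so that 0 of 5 is near the share over all genes.

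**Figure D3:**
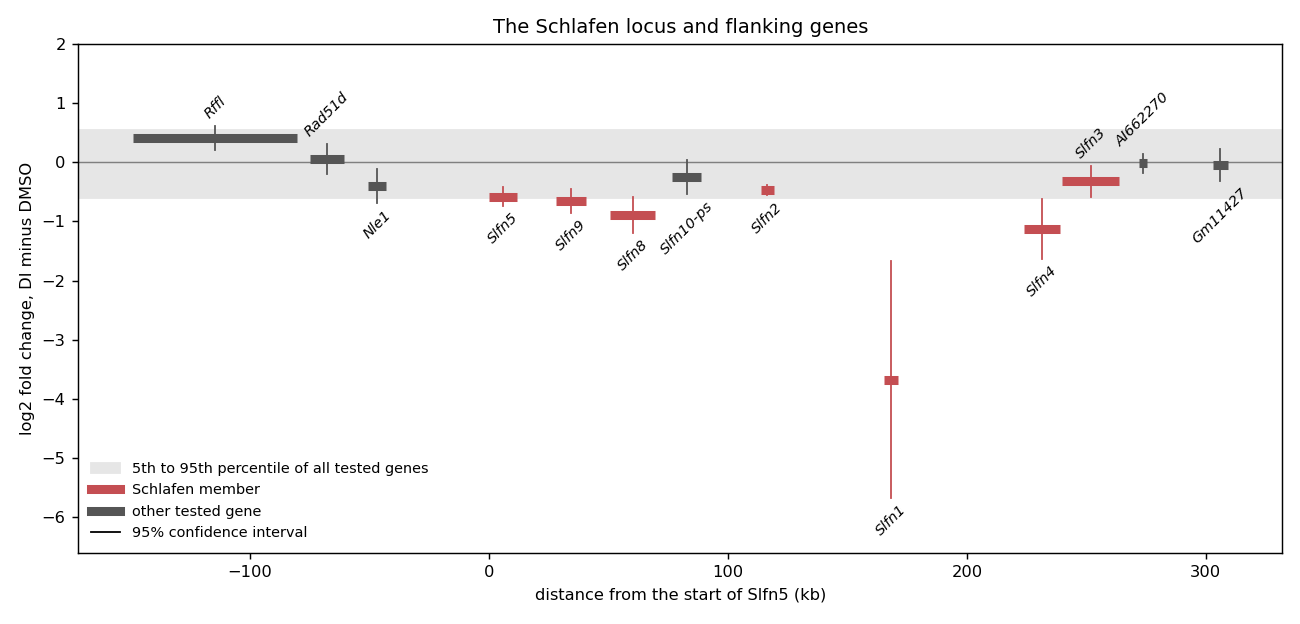
Log2 fold change (DI minus DMSO) of the tested genes of the Schlafen locus and of the 3 tested genes before and 2 after it, against the distance from the start of Slfn5 in kb, with 95% confidence intervals and the 5th to 95th percentile of all tested genes in grey. The 7 members lie between −3.67 (Slfn1) and −0.32 (Slfn3), and the flanking genes between −0.40 (Nle1) and 0.41 (Rffl). The 2 genes after the locus lie between Slfn3 and Slfn14.

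Because Schlafen genes arose by duplication, reads of one member may be counted for another, and how the counting treated such reads is not given in the sources used here. Aligned coding sequences were 92.7% identical between Slfn8 and Slfn9 and 92.3% identical between Slfn3 and Slfn4, and between 57.6% and 75.3% identical in every other pair of members. Windows of 75 bases that also occur word for word in another gene made up 9.04% of the Slfn3 transcript, 7.52% of Slfn8, 6.06% of Slfn9, 3.24% of Slfn4, 1.70% of Slfn2, 1.64% of Slfn5 and 0% of Slfn1. For Slfn3 most of the shared windows lay in Gm11427, and for Slfn8 and Slfn9 most lay in Slfn10-ps. Stretches of at least 95% identity are given for the transcript of each gene with the highest share in that match. It can be a short one and need not be the transcript of the windows, so the shares do not hold for the whole gene. They were 99.8% of a Slfn8 transcript in the match with Slfn9 and 99.9% in the match with Slfn10-ps. They were 58.8% of a Slfn9 transcript with Slfn8, and 64.5% of a Slfn3 transcript with Slfn4. Slfn2 had such stretches with Slfn3 over 22.8% of its transcript. A Slfn3 transcript had them with Gm11427 over 36.3%, and Gm11427 had 12.5 and 14.1 CPM with DI and 13.6 and 13.7 CPM with DMSO. The separate values of these genes are uncertain, to an extent that depends on how mismatches and shared reads were handled. Members that matched over at least 20% of a transcript at 95% identity or more were therefore also summed before the test. Slfn8 with Slfn9 had a log2 fold change of −0.74 (edgeR adjusted p = 0.00510), and Slfn2 with Slfn3 and Slfn4 had −0.47 (adjusted p = 0.00129), a sum made up mostly of Slfn2. Slfn10-ps and Gm11427 were not part of these sums, and Slfn3 with Slfn4 was not summed apart from Slfn2. Reads shared with Slfn10-ps or Gm11427, or between Slfn3 and Slfn4, are therefore not settled by them. In the annotation Slfn2 also overlaps the antisense gene Gm20234 and Slfn9 the microRNA gene Mir7679, each with 0 shared exon bases.

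**Figure D4:**
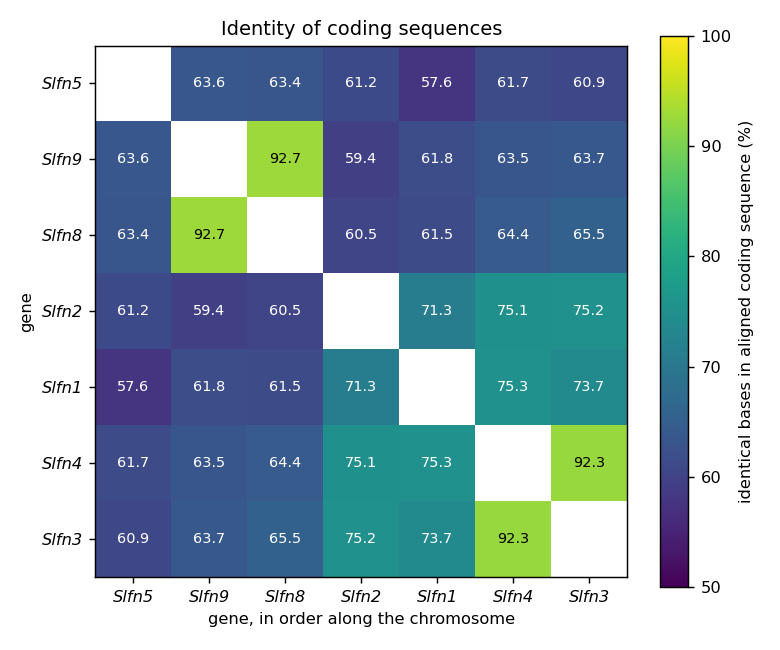
Percent of identical bases in aligned coding sequences for each pair of Schlafen members, in their order along the chromosome. The neighbours Slfn8 and Slfn9 (92.7%) and Slfn4 and Slfn3 (92.3%) stand out from all other pairs (57.6% to 75.3%).

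The genes whose pattern over the 4 libraries was most like that of Slfn2 and Slfn5, the members with the most counts, were found by the root mean square distance of centred log2 CPM among 11002 candidates. Nearest to Slfn2 were Srm (spermidine synthase) at 0.010, Nsun2, a methyltransferase of transfer RNA, at 0.012, and St3gal1, a sialyltransferase, at 0.013. Nearest to Slfn5 were Nek2, a kinase of mitosis, at 0.014, Nr1h3, the oxysterol receptor LXR alpha, at 0.015, and Eif2ak2, the interferon-induced RNA-sensing kinase PKR, at 0.022. Nsun2 fell from 206 and 208 CPM with DMSO to 150 CPM in each DI library. Eif2ak2 fell from 94.2 and 109 CPM with DMSO to 70.0 and 66.3 CPM with DI. With 4 libraries in 2 groups, likeness here means mainly a similar fold change.

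The interferon genes that belong to the same textbook response were compared from lists written from general knowledge. These lists and those of the next paragraphs were chosen with earlier results of these data known, so their counts are no independent support. Among the interferon effector genes (antiviral proteins and other products), 38 of 40 tested were called lower with DI and 0 higher, against 7.7% of all tested genes called lower, and the median log2 fold change was −1.12 beside −0.66 for the members and 0.00 for all tested genes. Ifit3b (8 and 9 counts with DI, 60 and 54 with DMSO) and Iigp1 (3 and 7 against 19 and 30) passed the filter only through the DMSO group, and with at least 10 counts in every library 37 of 38 were called lower. The members of that list with the most counts were Parp14 (−0.57, SE 0.079), Samd9l (−0.56, SE 0.076) and Trim30a (−0.54, SE 0.056), which had edgeR adjusted p-values of 0.00767, 0.00717 and 0.00329. The summed level of the list was 1195 to 1263 CPM with DI and 2023 to 2182 CPM with DMSO.

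The list of interferon signalling genes held receptors, kinases, STAT and IRF factors, and feedback inhibitors that restrain the signal. It had a median of −0.05, nearer to 0 than that of the effector genes. Of 21 tested, 6 were called lower, 1 higher and 14 were not called, against 7.7% lower and 7.14% higher over all tested genes. Jak1 (0.13, SE 0.036), Ptpn6 (−0.06, SE 0.053) and Ifnar1 (−0.0050, SE 0.040), a kinase, a phosphatase and a receptor chain, were not called. Those that fell included, named after their values were seen, Stat2 (−0.61), Irf9 (−0.46), Irf7 (−1.18) and the feedback inhibitors Usp18 (−1.31) and Socs3 (−0.99). Of these, Stat2 and Irf9 are parts of the factor that binds the element searched for above. Irf8, a factor of the myeloid lineage, rose by 0.45 (SE 0.045, edgeR adjusted p = 0.00301). All 12 interferon ligand genes of the list, Ifnb1 and Ifng among them, had 0 counts in every library. The part of interferon signalling in the levels of the Schlafen genes was not tested.

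**Figure D5:**
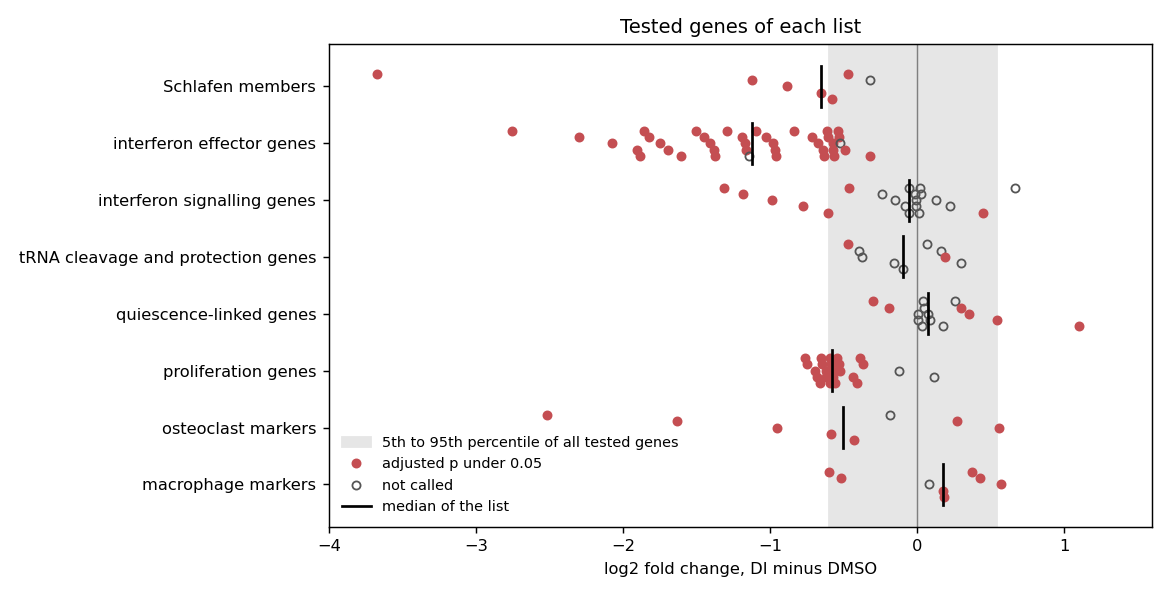
Log2 fold change (DI minus DMSO) of each tested gene in the Schlafen family and 7 gene lists, filled where the adjusted p was under 0.05, with list medians as black lines and the 5th to 95th percentile of all tested genes in grey. The Schlafen median (−0.66) lies between those of the interferon effector genes (−1.12) and the interferon signalling genes (−0.05). It is nearer to those of the proliferation genes (−0.58) and the osteoclast markers (−0.51).

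Since Schlafen proteins are known for their link to transfer RNA and to resting cells, genes of those processes were also examined. Over all tested genes 7.7% were called lower and 7.14% higher, and the counts of this paragraph are to be read beside these shares. Among the transfer RNA genes 1 of 9 tested was lower and 1 higher, which is near the share over all genes. Nsun2 fell by 0.47 (SE 0.039, edgeR adjusted p = 0.00186), Rnh1, the inhibitor of the nuclease angiogenin, rose by 0.19 (SE 0.038, adjusted p = 0.0251), and Elac2, which trims transfer RNA, had −0.10 (SE 0.094) and was not called. Among 15 quiescence-linked genes 4 were called higher and 2 lower, with a median of 0.07. Cdkn1a, a brake on the cell cycle, rose by 0.35 (SE 0.035) and Foxo3 by 0.30 (SE 0.067), while Btg1 fell by 0.19 (SE 0.042) and Klf4 fell by 0.30 (SE 0.067), with edgeR adjusted p-values of 0.00298, 0.0349, 0.0351 and 0.0360. The other 2 that rose, named after their values were seen, were Cdkn1c, another brake on the cell cycle and the member of the list with the largest change (1.10, SE 0.060, edgeR adjusted p = 0.00056), and Klf2 (0.54, SE 0.11, adjusted p = 0.0236). Proliferation genes were lower as well: 22 of 24 were called lower and 0 higher, and their median was −0.58. Mki67 and Top2a, markers of dividing cells, fell by 0.55 (SE 0.057) and 0.57 (SE 0.049), and Pcna had 0.12 (SE 0.041, edgeR adjusted p = 0.118). Their summed level was 2743 to 2766 CPM with DI and 3789 to 3878 CPM with DMSO, and their part in the levels of the Schlafen genes was not tested.

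Markers of the labelled cells were present in all libraries. Summed macrophage markers reached 28443 to 29258 CPM with DI and 22261 to 23125 CPM with DMSO, with 5 of 8 called higher and 2 lower. Over all tested genes 7.14% were called higher and 7.7% lower. Lyz2 rose by 0.37 (SE 0.035) and Cd68 by 0.18 (SE 0.041), and Csf1r had 0.08 (SE 0.037) and was not called. The 2 that fell were Cd14 (by 0.51, SE 0.061) and Fcgr1, an Fc receptor also induced by interferon (by 0.60, SE 0.13). Of 8 tested osteoclast markers 5 were lower with DI and 2 higher, with a median of −0.51. Nfatc1 and Mmp9 fell by 0.43 (SE 0.052) and 1.64 (SE 0.086), and Atp6v0d2 and Itgb3 rose by 0.27 (SE 0.035) and 0.56 (SE 0.079). Schlafen genes are also expressed in lymphocytes, so markers of other cells were summed. T and NK cell markers came to 2.85 to 2.88 CPM with DI and 2.79 to 3.60 CPM with DMSO, with Cd3e, Cd3g, Cd8a, Cd8b1, Trac and Ncr1 at 0 in all libraries and 0 of 3 tested (Cd4, Lck and Klrb1c) called. B cell markers came to 21.3 to 23.5 CPM with DI and 10.7 to 11.8 CPM with DMSO, nearly all of it Ighm, which rose by 1.03 (SE 0.10, edgeR adjusted p = 0.00298), with Pax5 at 0. Neutrophil markers came to 8.69 to 9.90 and 7.25 to 7.80 CPM in the same groups, with 0 of 3 tested (S100a8, S100a9 and Ltf) called, and of the stromal markers, Col1a1, Col1a2 and Col3a1 among them, 0 of 5 were called. The dendritic cell list had Bst2 as its sole tested gene, which is also an interferon effector gene and was lower with DI, and 0 erythroid markers were tested.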

How the data were processed

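RNA was measured in 2 RANKL+DI and 2 RANKL+DMSO libraries of BMMs, grouped by their titles. The authors deposited raw counts per gene, without normalization, and FPKM values, which follow from the counts, a length per gene and the library totals. The submitters' processing notes name GRCm38 and mm10, and the aligner, counter, strand setting and annotation release are not given in the sources used here. A second deposited table repeats the values with annotation and was not used. Depth was 16085692 to 19403480 counts per library. The floors and the interval of the summed Slfn1 ratio cover counting error only, while the intervals of log2 fold changes also take in the spread between libraries.

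Counts were tested in R 4.3.3 with edgeR 4.0.16 (TMM factors, default filter with a minimum of 10 counts, quasi-likelihood fit, condition as the only term), with p-values adjusted by the Benjamini-Hochberg method over 12590 genes. Residual degrees of freedom were 2. The tests and intervals used more, because the fit also borrows information on spread across genes, and the median total was 5.95. Each standard error is the size of the log2 fold change over the root of F. Libraries of one group differed by more than sampling noise and were kept as separate replicates. Transcripts of GENCODE M21 were compared with BLAST+ 2.17.0 (at least 95% identity) and Biopython 1.88, and promoter windows came from RefSeq. Protein sequences were not used here. The steps were tested on simulated data. Alternatives were other scalings, filters, tests (DESeq2 1.42.0, limma 3.58.1), FPKM with pseudocounts of 1 and 0.01, a replicate block, summed paralogs and each library left out.

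The members and lists were chosen with earlier results of these data known. Named genes were the members, every other Slfn gene, the 3 genes nearest in pattern to the 2 members with the most counts, genes overlapping a member, and from each list the 3 genes with the most counts and those called against the direction of most called genes of the list. Exceptions are stated where they appear, and some genes of the lists and flanks are not reported here.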

Additional observations from a re-analysis of the deposited data

How the results depend on the processing

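No alternative turned the direction of a member. Slfn2, Slfn5, Slfn8 and Slfn9 stayed called under every alternative run (16, 15, 16 and 16). Slfn3, not called with TMM, passed under library size only (−0.43), limma on log2(FPKM + 1) (−0.37), limma on log2(FPKM + 0.01) (−0.43) and, by construction, when summed with Slfn2 and Slfn4 (−0.47). The FPKM values are also scaled by library totals, so the limma runs on them are no separate scaling. The median of all tested genes was −0.07 with FPKM + 1 and −0.10 with FPKM + 0.01, beside −0.10 with library size only. With one library left out, the log2 fold change lay between −6.80 and −2.81 for Slfn1, −0.48 and −0.46 for Slfn2, −0.37 and −0.28 for Slfn3, −1.21 and −1.03 for Slfn4, −0.65 and −0.50 for Slfn5, −1.03 and −0.73 for Slfn8, and −0.74 and −0.56 for Slfn9. Between 4 and 6 members were then called, and between 1087 and 1394 genes in all against 1868, with 1120 without DMSO replicate 1 and 1087 without DMSO replicate 2. Fewer libraries remain in those fits. Slfn1 had no value with at least 10 counts in every library, in the DESeq2 Wald test (adjusted p not given) and without DMSO replicate 1. In place of CPM per kilobase, the deposited FPKM were 273 (DMSO) and 184 (DI) for Slfn2, and 6.01 for Slfn3 and 16.6 for Slfn5 with DI.

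No shift shared by libraries of the same replicate number was visible (correlation of replicate differences between the groups −0.03). This cannot show whether such libraries shared a culture or mouse, which the labels do not say. With the replicate block, 1389 genes and 5 members were called, and Slfn1 (−3.66, adjusted p = 0.0770) was the member lost. At these depths Slfn1 and Slfn14 lay near 3 counts in some or all libraries, where differences are not detectable or rest on few reads.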
